A study of Homo sapiens with 13 samples.

Results

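The MAP kinase phosphatases are 10 genes of the dual specificity phosphatase family, and all 10 (DUSP1, DUSP2, DUSP4, DUSP5, DUSP6, DUSP7, DUSP8, DUSP9, DUSP10 and DUSP16) were found by symbol in both deposited count tables, of 60554 genes in the FGF2 table and 60500 in the doxycycline table. Their RNA was followed in 13 bulk RNA-seq libraries made from H9 human embryonic stem cells, an established line, that carry NEUROG2 under a doxycycline-inducible system and turn into neurons when the drug is given. In the FGF2 set every culture carried the inducible gene and received doxycycline at 1 µg/ml for 6 days. The day 12 FGF2 group then had FGF2, a growth factor, at 20 µg/ml for 6 days without doxycycline, and the day 12 control group spent the same days with neither. The day 6 FGF2 group had FGF2 at 20 µg/ml together with doxycycline, and the day 6 control group had doxycycline alone. Each of these 4 groups holds 2 libraries. Doses and their units are as the labels give them and could not be checked. The descriptions of both day 12 controls state 6 days of growth, whereas their titles and listed periods give 12 days, which was used. In the doxycycline set there is 1 library each of day 0, of day 5 with and without doxycycline, and of day 11 with and without doxycycline, and the labels give no FGF2 treatment for these 5 cultures. Cultures were moved from E8, a stem cell medium, to a neural medium after 2 days, and each sample was a single well. The day 0 library may have been taken before this move, so day and medium may not be separable in comparisons with day 0. In the FGF2 set hES-N2G1 and hES-N2G2 in the titles are numbered as libraries 1 and 2 here, although the source field reads hES-N1 for the samples of both sets. Whether they are clones or cultures is not stated, so p-values measure the spread between these libraries only, which may be technical.

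MAP kinase phosphatases switch off ERK, JNK and p38 by removing the phosphates from the threonine and the tyrosine that activate these kinases. DUSP1, DUSP2, DUSP4 and DUSP5 are nuclear and are known as genes induced soon after a stimulus, and DUSP5 acts on ERK. DUSP6, DUSP7 and DUSP9 are cytoplasmic and prefer ERK, and DUSP6 is a classical feedback gene of FGF signalling in vertebrate embryos. DUSP8, DUSP10 and DUSP16 prefer JNK and p38, the stress-activated kinases, of which JNK also has roles in axon growth and in the death of neurons.

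The libraries held 22802501 to 30014661 counted reads in the FGF2 set and 28443657 to 47159475 in the doxycycline set. NEUROG2 was at 49.2 to 54.6 CPM (counts scaled to 1000000 reads, with TMM factors) in the 4 day 12 libraries and at 7540 to 7820 CPM in the 4 day 6 libraries, and in the doxycycline set at 1020 to 1560 CPM with the drug and 0.456 to 6.26 CPM without it. All 11 neuron markers were at 1 CPM or more in every group of the FGF2 set, where their summed level was 24100 to 24700 CPM in the day 12 FGF2 libraries and 23100 to 23200 CPM in the day 12 controls. The libraries of the day 6 FGF2 group stood apart from each other. Their counts differed by a chi-square of 19.0 per degree of freedom, against 2.87 to 3.26 within the other 3 groups. Results of the FGF2 set that change without either of them are therefore given both ways.

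Late FGF2 came with higher levels of 4 phosphatases: the ERK phosphatases DUSP6 and DUSP5, the nuclear DUSP4, and DUSP10, which prefers JNK and p38. DUSP6 had the largest difference, at 238 ± 21.4 CPM in the day 12 FGF2 group and 34.3 ± 2.84 CPM in the day 12 control group (SD, n = 2 each). No phosphatase passed the test as lower. Of the 10 genes, 9 passed the filter on low counts and were tested by edgeR's quasi-likelihood test with Benjamini-Hochberg adjustment over 20142 genes, with a threshold of 0.05 on the adjusted p. The 4 of 9 that were higher stand against 1.63% of all genes called higher, and the 0 of 9 that were lower stand against 0.536% called lower. The median log2 fold change was 0.59 over the 9 phosphatases and 0.00 over all genes tested. Without day 6 FGF2 library 1 or 2, DUSP8 also passed, as lower. Among cell type markers, 1 of 11 neuron markers (NEFL) was higher with late FGF2, and 2 of 7 neural progenitor markers (SOX2 and SOX1) were lower. SOX1 was low in both groups, at 0.354 CPM with late FGF2 and 2.21 CPM in the day 12 controls. Summed over the 7, progenitor markers were at 1010 to 1090 CPM with late FGF2, against 870 to 932 CPM in the day 12 controls, so the sum was not lower. Of 5 tested glial markers 1 was higher, OLIG2, at 9.90 ± 0.99 CPM with late FGF2 and 6.30 ± 0.71 CPM in the day 12 controls. Of 3 tested pluripotency markers 1 was higher, ZFP42, at 1.15 ± 0.0945 CPM with late FGF2 and 0.329 ± 0.164 CPM in the day 12 controls (SD, n = 2 each). Markers of dividing cells summed to 7.93 to 10.4 CPM, against 9.60 to 10.8 CPM in the day 12 controls, and the part of all these markers in the phosphatase levels was not tested. In bulk RNA, fewer cells of a type and less RNA per cell cannot be told apart.

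**Figure D1:**
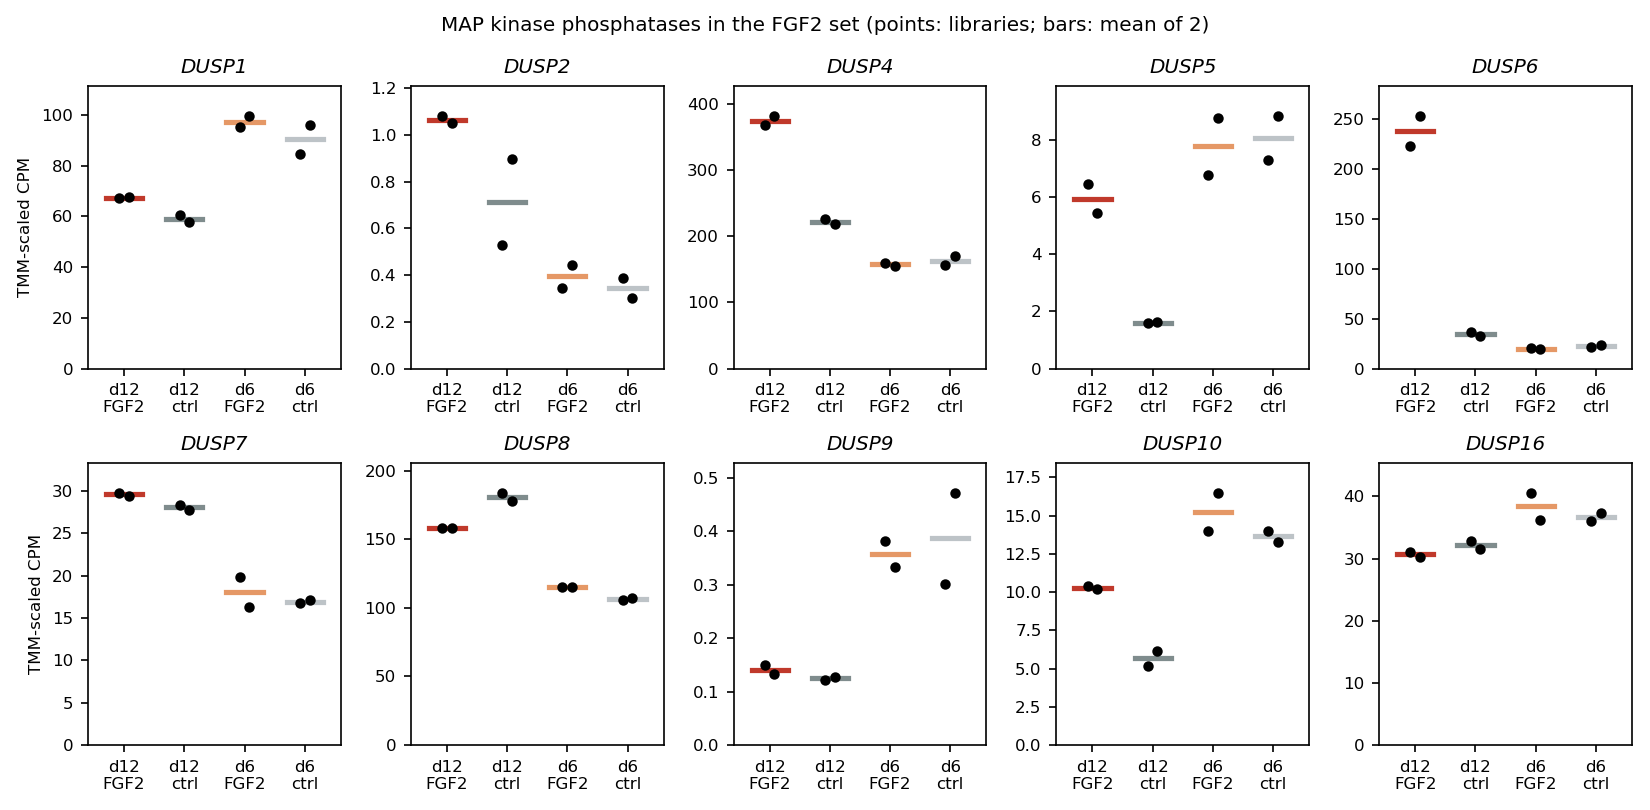
TMM-scaled CPM of each of the 10 phosphatases (vertical axis, from 0) in the 4 groups of the FGF2 set, with a point per library and a bar at the mean of 2. DUSP6, DUSP4, DUSP5 and DUSP10 lie higher in both day 12 FGF2 libraries than in both day 12 control libraries, while their day 6 FGF2 and day 6 control libraries lie at similar levels.

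DUSP6 (ENSG00000139318, GRCh38 chromosome 12, 89347232 to 89353271, minus strand) was at 223 and 253 CPM in the day 12 FGF2 libraries, against 36.3 and 32.3 CPM in the day 12 controls. The lowest FGF2 library lay far above the highest control. The fold change was 6.94, or 2.79 ± 0.09 on the log2 scale (SE, adjusted p = 9.88e-11 by edgeR), and DUSP6 ranked 3 by p among all genes tested. The gene shares 40.5% of its exon bases with AC024909.2, an antisense gene, and the library kit does not mark strand, so reads of the pair cannot be told apart. AC024909.2 itself was credited with 1 to 32 counts per library of this set, against 508 to 7685 for DUSP6.

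DUSP5 (ENSG00000138166, chromosome 10, 110497838 to 110511544, plus strand) was at 6.47 and 5.43 CPM in the day 12 FGF2 libraries, against 1.58 and 1.62 CPM in the day 12 controls. Both groups are low, and they do not overlap. The counts behind these levels were 173 and 165 with FGF2 and 39 and 38 without. The log2 fold change was 1.89 ± 0.22 (SE, adjusted p = 9.08e-05 by edgeR), a fold of 3.71.

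DUSP4 (ENSG00000120875, chromosome 8, 29333064 to 29350668, minus strand) was at 368 and 381 CPM in the day 12 FGF2 libraries, against 226 and 218 CPM in the day 12 controls. The groups do not overlap. The log2 fold change was 0.75 ± 0.07 (SE, adjusted p = 1.95e-05 by edgeR), a fold of 1.69.

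DUSP10 (ENSG00000143507, chromosome 1, 221701424 to 221742176, minus strand), which prefers JNK and p38, was at 10.4 and 10.2 CPM in the day 12 FGF2 libraries, against 5.18 and 6.18 CPM in the day 12 controls. The groups do not overlap. The log2 fold change was 0.86 ± 0.15 (SE, adjusted p = 0.00336 by edgeR). This call rests on the controls, since without day 12 control library 1 the log2 change was 0.75 with an adjusted p of 0.0758 by edgeR.

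The remaining members did not pass the test. DUSP8 (ENSG00000184545, chromosome 11, 1554044 to 1571920, minus strand), the other abundant JNK and p38 phosphatase, was at 158 CPM in both day 12 FGF2 libraries, against 184 and 178 CPM in the day 12 controls. The groups do not overlap, as is also true of DUSP1, DUSP2, DUSP7 and DUSP16, so with 2 libraries each this alone marks no change. The share of all genes without overlap was not counted. The log2 fold change of DUSP8, -0.20 ± 0.07 (SE), had an adjusted p of 0.275 by edgeR. Without day 6 FGF2 library 1 the adjusted p was 0.0153, without library 2 it was 0.0145, and with only the day 12 libraries in the fit it was 0.00817, each with a log2 change of -0.20. DUSP1 (ENSG00000120129, chromosome 5, 172768090 to 172771195, minus strand) was at 67.1 and 67.8 CPM in the day 12 FGF2 libraries, against 60.4 and 57.7 CPM in the controls, with a log2 change of 0.19 ± 0.08 and an adjusted p of 0.419 by edgeR. With only the day 12 libraries in the fit its adjusted p was 0.0488. Thus small differences of DUSP1 and DUSP8 fall on either side of the threshold with the estimate of the spread.

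DUSP7 (ENSG00000164086, chromosome 3, 52048919 to 52056550, minus strand), a cytoplasmic ERK phosphatase like DUSP6, was at 29.8 and 29.4 CPM in the day 12 FGF2 libraries, against 28.4 and 27.8 CPM in the controls (log2 change 0.08 ± 0.10, adjusted p = 0.883 by edgeR). DUSP16 (ENSG00000111266, chromosome 12, 12474210 to 12562383, minus strand) was at 31.1 and 30.3 CPM with late FGF2, against 32.8 and 31.6 CPM in the controls (log2 change -0.07 ± 0.09, adjusted p = 0.877 by edgeR). For both genes a change as large as that of DUSP4 lies several standard errors away. DUSP2 (ENSG00000158050, chromosome 2, 96143166 to 96145440, minus strand), a nuclear phosphatase best known from blood cells, was at 1.08 and 1.05 CPM with late FGF2, against 0.527 and 0.895 CPM in the controls. With 13 to 32 counts per library its log2 change of 0.59 ± 0.40 (SE) was too imprecise to call (adjusted p = 0.682 by edgeR). DUSP9 (ENSG00000130829, chromosome X, 153642492 to 153651326, plus strand), an ERK phosphatase known from placenta, had 4 counts in each day 12 FGF2 library, against 3 in each control, and was removed by the filter.

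Promoters are shown for the members that were called with late FGF2 and have one on record. RefSeq promoters of build GRCh38.p14 were matched for 8 of the 10 members, DUSP4 and DUSP5 not being among them. The 250 bases before the RefSeq start were searched on both strands for 4 motifs. These are TGACGTCA (the cyclic AMP response element, CRE) and TGANTCA (the AP-1 site), then CCGGAA (a form of the ETS family site) and CAGATG (the E-box that NEUROG2 prefers). Of 35116 RefSeq promoters, 1.65% hold the first, 6.57% the second, 14.5% the third and 12.2% the fourth, and the matches in the phosphatase promoters do not overlap. The windows of DUSP6 (chr12:89352502-89352751, minus strand) and of the upstream DUSP10 start (chr1:221742090-221742339, minus strand) are shown in the direction of transcription. They hold none of the 4 motifs, so no letter is in capitals. Other forms of these sites were not searched for. RefSeq puts the DUSP6 start at 89352501, downstream of the GENCODE start at 89353271, so this window lies inside the gene. The bases before the GENCODE start of DUSP6 were not searched. The DUSP10 window lies partly inside its gene, with a RefSeq start at 221742089 and a GENCODE start at 221742176. Both windows are less rich in G and C (57.2% and 56.4%) than those of DUSP1, DUSP2, DUSP7, DUSP8, DUSP9 and DUSP16 (74.0% to 78.4%). The window of the second DUSP10 start listed by RefSeq, at 55.2%, lies inside the gene and also held no match.
DUSP6: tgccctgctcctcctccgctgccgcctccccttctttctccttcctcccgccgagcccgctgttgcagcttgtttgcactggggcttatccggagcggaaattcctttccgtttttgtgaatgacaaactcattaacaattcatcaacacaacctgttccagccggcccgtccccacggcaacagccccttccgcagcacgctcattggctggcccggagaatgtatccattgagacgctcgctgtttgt
DUSP10: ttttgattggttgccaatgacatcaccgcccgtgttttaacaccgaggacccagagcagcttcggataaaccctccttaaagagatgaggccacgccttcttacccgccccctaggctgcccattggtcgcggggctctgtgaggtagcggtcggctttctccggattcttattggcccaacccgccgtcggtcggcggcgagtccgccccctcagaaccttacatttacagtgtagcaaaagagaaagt

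Early FGF2, given together with doxycycline, came with no called phosphatase. The smallest unadjusted p among the 9 was 0.112, for DUSP6. Of all 20142 genes tested, 0.0% were called in either direction by edgeR, with 658 at an unadjusted p under 0.05, and DESeq2 and limma voom also called 0 genes, with 314 and 682 at an unadjusted p under 0.05. DUSP6 was at 20.4 and 19.7 CPM in the day 6 FGF2 libraries, against 21.8 and 23.3 CPM in the day 6 controls. The values lie just below those of the controls, with a log2 change of -0.17 ± 0.10 (SE, adjusted p = 0.927 by edgeR). DUSP5 was at 6.79 and 8.77 CPM with early FGF2, against 7.30 and 8.83 CPM in the controls, and DUSP4 at 160 and 155 CPM with early FGF2, against 156 and 170 CPM in the controls. Their ranges overlap, with log2 changes of -0.05 ± 0.17 and -0.05 ± 0.07 (SE). DUSP10 was at 14.0 and 16.5 CPM with early FGF2, against 14.0 and 13.3 CPM in the controls. The other 5 tested phosphatases had log2 changes of 0.06 to 0.20. Without day 6 FGF2 library 1, which leaves 1 library in that group, the log2 changes with early FGF2 were -0.19 for DUSP6 and 0.12 for DUSP5. They were -0.07 for DUSP4 and 0.28 for DUSP10. The number of all genes called depended on this library, as given under the processing.

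**Figure D2:**
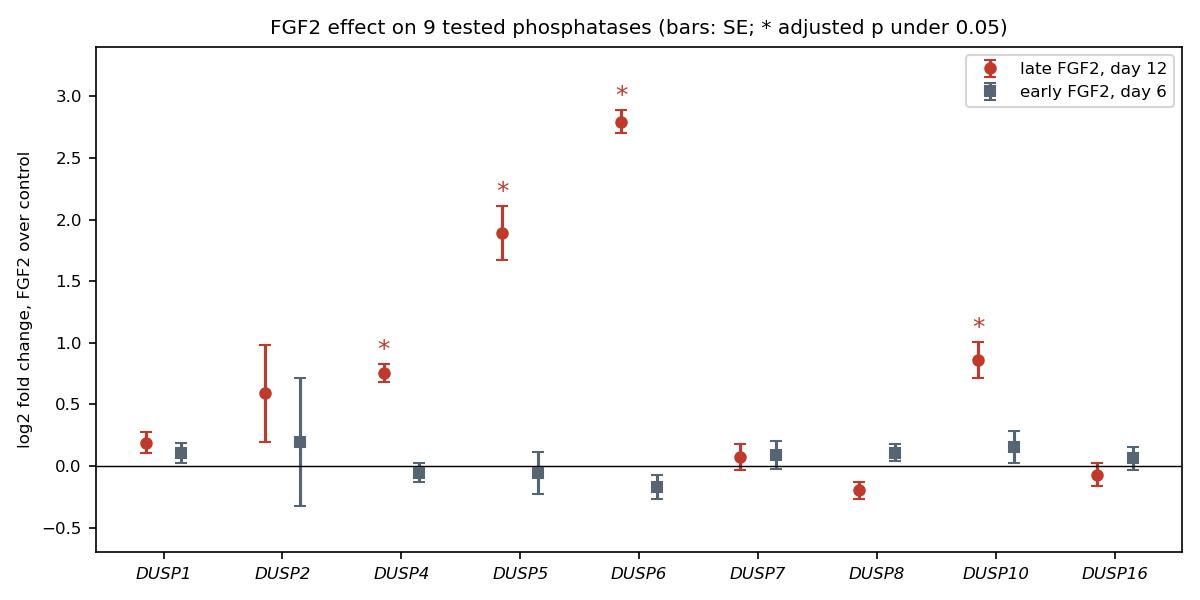
Log2 fold change of FGF2 over its own control (vertical axis) for the 9 tested phosphatases, for late FGF2 on day 12 (circles) and early FGF2 on day 6 (squares), with bars of 1 SE and asterisks at an adjusted p under 0.05. DUSP6 at 2.79, DUSP5 at 1.89, DUSP10 at 0.86 and DUSP4 at 0.75 carry asterisks with late FGF2, and all early FGF2 changes lie between -0.17 and 0.20.

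The difference between the effects was itself tested in the same fit. DUSP6 responded more to late than to early FGF2 by 2.96 ± 0.14 log2 units (SE, adjusted p = 2.53e-08 by edgeR). For DUSP5 the difference was 1.94 ± 0.28 (adjusted p = 0.00192) and for DUSP4 it was 0.81 ± 0.10 (adjusted p = 0.00083). These 3 of 9 phosphatases stand against 0.645% of all genes called with a more positive late effect, and 0 of 9 against 0.0844% called with a more negative one. DUSP10, which was called with late FGF2, had a difference of 0.70 ± 0.20 (SE) and did not pass (adjusted p = 0.211 by edgeR), and without day 6 FGF2 library 2 its adjusted p was 0.0252. DUSP8 had a difference of -0.31 ± 0.10 (adjusted p = 0.377 by edgeR), with adjusted p of 0.0182 without day 6 FGF2 library 1 and 0.0448 without library 2. Timing, the presence of doxycycline and the age of the cells differ together between early and late FGF2 and cannot be told apart.

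Between day 6 and day 12 without FGF2, 7 of the 9 tested phosphatases changed, on a background where 31.7% of all genes were called higher and 32.3% lower, so most genes moved. Higher on day 12 were DUSP8, DUSP7, DUSP6 and DUSP4, and lower were DUSP5, DUSP10 and DUSP1. DUSP5 had the largest change, at 1.60 ± 0.03 CPM in the day 12 control group and 8.07 ± 1.08 CPM in the day 6 control group (SD, n = 2 each), a log2 change of -2.33 ± 0.21 (SE, adjusted p = 1.43e-07 by edgeR). DUSP10 was at 5.68 ± 0.71 CPM on day 12 and 13.6 ± 0.50 CPM on day 6 (log2 change -1.26 ± 0.14), and DUSP1 at 59.0 ± 1.86 CPM on day 12 and 90.4 ± 7.83 CPM on day 6 (log2 change -0.61 ± 0.08). Thus the low DUSP5 and DUSP10 values of the day 12 controls, against which late FGF2 was read, are themselves lower than on day 6. The day 12 FGF2 values of DUSP5, 5.43 to 6.47 CPM, lie below the day 6 control values of 7.30 to 8.83 CPM, while those of DUSP6, 223 to 253 CPM, lie far above the day 6 control values of 21.8 to 23.3 CPM.

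DUSP8 rose to 181 ± 4.43 CPM in the day 12 controls, against 107 ± 1.17 CPM in the day 6 controls (log2 change 0.76 ± 0.07, adjusted p = 2.02e-07 by edgeR). DUSP7 was at 28.1 ± 0.36 CPM on day 12 and 17.0 ± 0.20 CPM on day 6 (log2 change 0.73 ± 0.11). DUSP6 had a log2 change of 0.61 ± 0.10 and DUSP4 of 0.45 ± 0.07 (SE). DUSP16, at 32.2 ± 0.89 CPM on day 12 and 36.7 ± 0.90 CPM on day 6, and DUSP2, at 0.711 ± 0.26 CPM on day 12 and 0.343 ± 0.06 CPM on day 6, did not pass (adjusted p = 0.0885 and 0.075 by edgeR). DUSP16 passed without either day 6 FGF2 library (adjusted p = 0.0294 and 0.0288) and with only these groups in the fit (0.0499), and DUSP2 passed without day 12 control library 1 (0.047). DUSP9 had 3 counts in each day 12 control library, against 7 and 11 on day 6. Cell type markers also differed between these days. Markers of dividing cells summed to 9.60 to 10.8 CPM in the day 12 controls and 377 to 450 CPM in the day 6 controls over 6 genes, all of them called lower. Neuron markers summed to 23100 to 23200 CPM on day 12 and 12400 to 12900 CPM on day 6, with 8 of 11 called higher and 2 lower, and pluripotency markers to 109 to 120 CPM on day 12 and 270 to 282 CPM on day 6, with all 3 tested called lower. The part of these markers in the phosphatase changes was not tested.

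Doxycycline, which switches NEUROG2 on, came with much higher levels of 4 phosphatases on both days. They are DUSP8 and DUSP10, which prefer JNK and p38, and the nuclear DUSP4 and DUSP1. On day 5, 8 of the 10 phosphatases reached 10 CPM in the library with or without doxycycline, and 4 of these were at least 4-fold higher with doxycycline and 0 were 4-fold lower, on a background of 12.6% of all such genes higher and 11.5% lower. On day 11, 7 reached 10 CPM, with 4 higher and 0 lower, against a background of 11.5% higher and 9.85% lower. On day 5 the 4 higher members, DUSP4 included, reached 10 CPM only with doxycycline, so they could enter the count only as higher. On day 11 the same holds for DUSP1, DUSP8 and DUSP10, and DUSP4 had 10 CPM or more in both libraries. With 1 library a group there is no replicate check and no test, the ratios carry 95% exact binomial intervals that cover counting error only, and the 4-fold rule was applied after adding 1 CPM to both values. Scaling by library totals in place of TMM lowers the median log2 ratio of all genes by 0.16 on day 5 and by 0.30 on day 11, and each phosphatase ratio of dox over control below kept its direction under it.

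DUSP8 was at 182 CPM with doxycycline and 3.09 CPM without it on day 5, a ratio of 58.9 (interval 48.3 to 72.6). On day 11 it was at 288 CPM with doxycycline and 2.68 CPM without it, a ratio of 107 (interval 87.1 to 134). Without the drug it was low on each of the 3 days, with 51 to 99 counts per library. DUSP4 was at 328 CPM with doxycycline and 8.29 CPM without it on day 5 (ratio 39.5, interval 35.0 to 44.8), and at 242 CPM with it and 22.3 CPM without it on day 11 (ratio 10.8, interval 10.1 to 11.7). Its day 11 ratio was smaller as the level without doxycycline was higher and the level with it lower than on day 5. DUSP1 was at 56.4 CPM with doxycycline and 3.27 CPM without it on day 5 (ratio 17.2, interval 14.2 to 21.2), and at 51.9 CPM with it and 8.64 CPM without it on day 11 (ratio 6.01, interval 5.30 to 6.83). DUSP10 was at 24.4 CPM with doxycycline and 2.87 CPM without it on day 5 (ratio 8.51, interval 6.87 to 10.7), and at 17.5 CPM with it and 1.90 CPM without it on day 11 (ratio 9.21, interval 7.10 to 12.1).

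**Figure D3:**
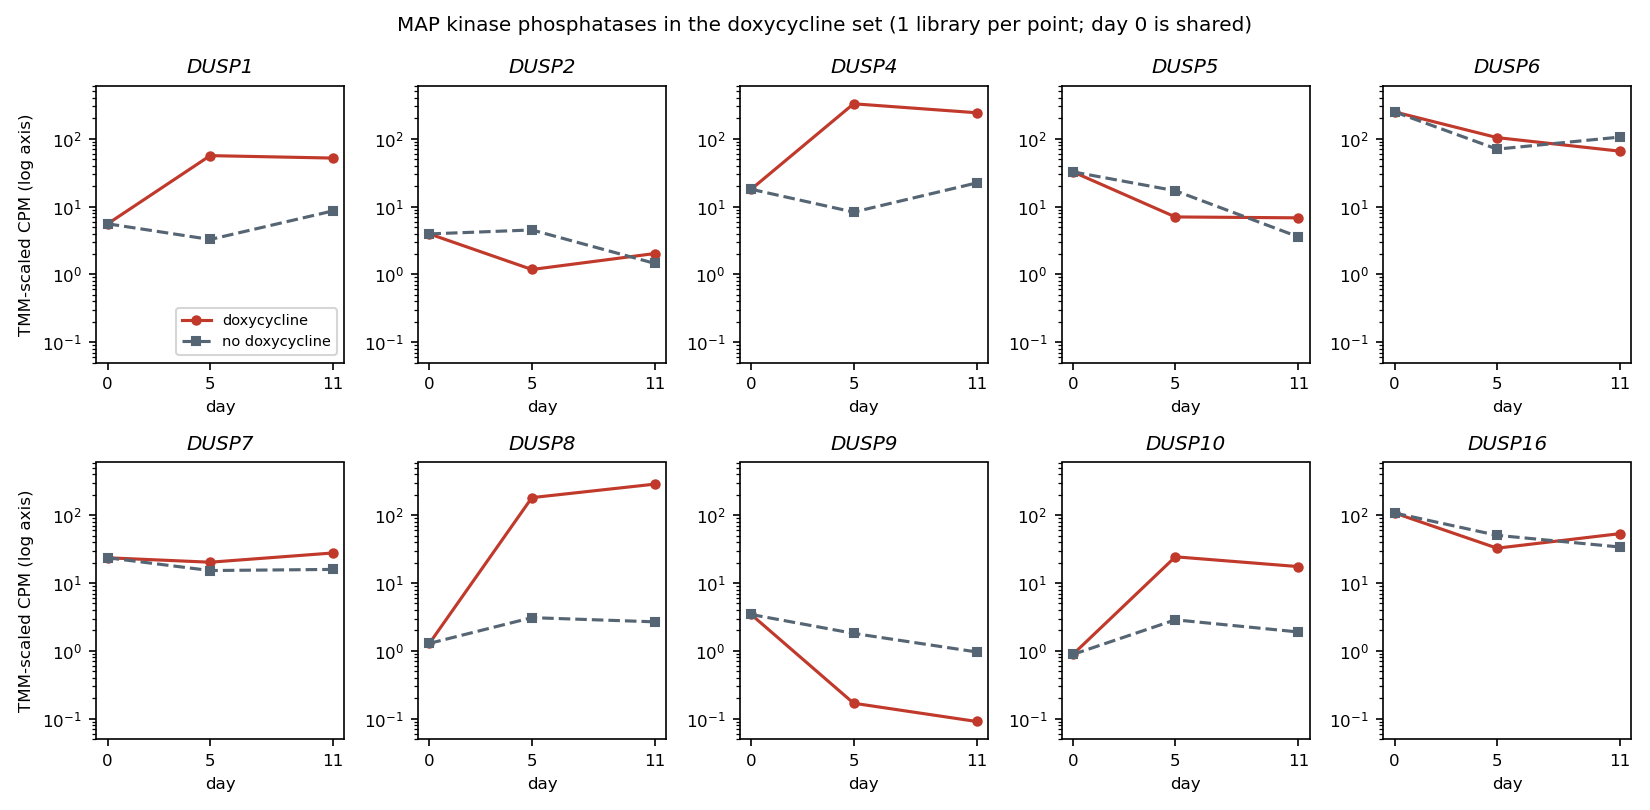
TMM-scaled CPM (log axis) of each phosphatase against the day of culture, with doxycycline (circles, solid) and without (squares, dashed), 1 library per point and a shared day 0. DUSP1, DUSP4, DUSP8 and DUSP10 separate upwards with doxycycline, DUSP9 separates downwards, and the lines of DUSP2, DUSP5, DUSP6 and DUSP16 cross.

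The promoters of DUSP1 and DUSP8 are shown because these members share both the pattern above and a motif that few promoters hold. The DUSP1 window (chr5:172771196-172771445, minus strand) holds 1 CRE, beginning 125 bases before the start, and the DUSP8 window (chr11:1572272-1572521, minus strand) holds 2, beginning 118 and 74 bases before it. The capitals mark these matches. The RefSeq start of DUSP8 lies 351 bases upstream of the 5′ end in GENCODE 29. None of the other 8 windows of members held any of the 4 motifs, and binding was not measured.
DUSP1: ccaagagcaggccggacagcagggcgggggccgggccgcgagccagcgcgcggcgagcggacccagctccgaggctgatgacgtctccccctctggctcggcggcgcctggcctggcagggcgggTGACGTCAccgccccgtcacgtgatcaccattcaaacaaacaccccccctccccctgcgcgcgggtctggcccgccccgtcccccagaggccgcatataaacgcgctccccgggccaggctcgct
DUSP8: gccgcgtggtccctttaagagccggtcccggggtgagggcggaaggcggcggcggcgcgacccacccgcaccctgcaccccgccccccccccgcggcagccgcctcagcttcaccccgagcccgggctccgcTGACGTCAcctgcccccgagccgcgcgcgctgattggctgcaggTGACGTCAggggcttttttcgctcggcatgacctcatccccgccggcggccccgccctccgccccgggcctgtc

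For DUSP6, DUSP16 and DUSP5 the ratio lay on opposite sides of 1 on the days, with counting intervals that leave out 1. DUSP6 was at 104 CPM with doxycycline and 70.3 CPM without it on day 5 (ratio 1.48, interval 1.40 to 1.55), and at 65.6 CPM with it and 106 CPM without it on day 11 (ratio 0.616, interval 0.584 to 0.651). DUSP16 was at 32.7 CPM with doxycycline and 50.6 CPM without it on day 5 (ratio 0.646, interval 0.600 to 0.695), and at 53.6 CPM with it and 34.0 CPM without it on day 11 (ratio 1.58, interval 1.46 to 1.70). DUSP5 was at 7.03 CPM with doxycycline and 17.1 CPM without it on day 5 (ratio 0.411, interval 0.355 to 0.475), and at 6.82 CPM with it and 3.58 CPM without it on day 11 (ratio 1.90, interval 1.52 to 2.40). None of these ratios reached 4-fold, the level without doxycycline of DUSP5 fell between the days while the level with it stayed near 7 CPM, and the difference between days was not tested.

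**Figure D4:**
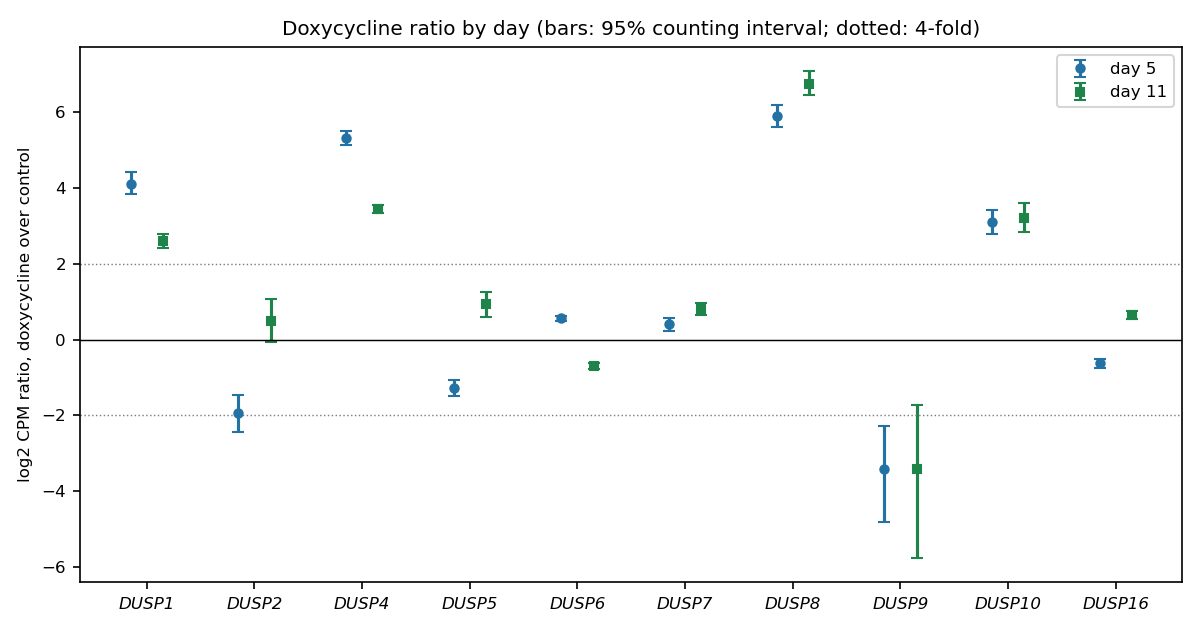
Log2 ratio of CPM with doxycycline over without (vertical axis) for the 10 phosphatases on day 5 (circles) and day 11 (squares), with 95% counting intervals and dotted lines at 4-fold. DUSP8 has ratios of 58.9 and 107, while DUSP5, DUSP6 and DUSP16 lie on opposite sides of 0 on the days.

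DUSP7 was at 20.3 CPM with doxycycline and 15.3 CPM without it on day 5 (ratio 1.33, interval 1.18 to 1.49), and at 27.8 CPM with it and 15.9 CPM without it on day 11 (ratio 1.75, interval 1.57 to 1.95). It varied least of the 10 in this set, spanning 0.82 log2 units over the 5 libraries. DUSP9 had 7 counts with doxycycline and 58 without it on day 5 (ratio 0.0936, interval 0.036 to 0.205), and 3 with it and 32 without it on day 11 (ratio 0.0943, interval 0.0185 to 0.301). DUSP2 had 49 counts with doxycycline and 145 without it on day 5 (ratio 0.262, interval 0.186 to 0.365), and 67 with it and 48 without it on day 11, where the interval of 0.955 to 2.08 includes 1. Both genes stayed under 5 CPM in all 5 libraries. The change of cell state that goes with these ratios was large, with summed neuron markers at 18100 and 20800 CPM with doxycycline on day 5 and day 11, against 72.0 and 313 CPM without it, and summed markers of dividing cells at 58.7 and 25.2 CPM with it, against 1550 and 1690 CPM without it. The part of these cell types in each ratio was not tested.

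Without doxycycline, DUSP5, DUSP6, DUSP7 and DUSP16 were lower on both later days than on day 0, and DUSP4 was lower on day 5 and higher on day 11. DUSP6 was at 249 CPM on day 0, 70.3 CPM on day 5 and 106 CPM on day 11. DUSP16 was at 108, 50.6 and 34.0 CPM on days 0, 5 and 11, and DUSP5 at 32.5, 17.1 and 3.58 CPM. DUSP5 on day 11 was the single phosphatase past 4-fold, with a ratio to day 0 of 0.110 (interval 0.0905 to 0.133). Of that pair only day 0 reached 10 CPM, so DUSP5 could enter the count only as lower. Of the 5 phosphatases at 10 CPM or more, 0 were 4-fold different on day 5 against day 0, on a background of 0.839% higher and 0.21% lower, and on day 11 it was 0 higher and 1 lower, against 2.11% and 2.46%. DUSP7 was at 23.6, 15.3 and 15.9 CPM on days 0, 5 and 11, and DUSP4 at 18.0, 8.29 and 22.3 CPM. DUSP1 was at 5.57, 3.27 and 8.64 CPM and DUSP10 at 0.886, 2.87 and 1.90 CPM. Summed pluripotency markers were at 4230, 3760 and 1580 CPM on these days, and their part was not tested. The change of medium after 2 days may also lie between day 0 and the later days, and its part was not tested.

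With doxycycline, no phosphatase was 4-fold different between day 11 and day 5, on a background of 0.741% of genes higher and 1.22% lower, among 7 phosphatases at 10 CPM or more. DUSP8 had a ratio of day 11 over day 5 of 1.58 (interval 1.53 to 1.63), DUSP16 of 1.64 (interval 1.53 to 1.76), DUSP6 of 0.632 (interval 0.600 to 0.666) and DUSP4 of 0.738 (interval 0.718 to 0.759). DUSP8 was also higher on day 12 than on day 6 in the controls of the FGF2 set, whereas DUSP6 and DUSP4 were higher there on day 12. Doxycycline was present to day 11 in the doxycycline set and withdrawn after 6 days in the FGF2 set, so these time courses are not matched.

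To set the members side by side, levels were divided by the kilobases of exon of each gene. For DUSP6, 40.5% of these bases are shared with AC024909.2. How reads of the shared bases were counted is not given, so the shares and ranks of DUSP6 below are uncertain. Summed over the 10 genes, the family was at 184 to 192 CPM per kilobase in the day 12 FGF2 libraries, against 118 to 122 in the day 12 controls, and at 117 to 118 in the day 6 FGF2 libraries, against 108 to 117 in the day 6 controls. In the day 12 FGF2 libraries DUSP4 and DUSP6 were the highest, with 27.4% to 27.6% and 26.2% to 28.5% of the sum. In the day 12 controls DUSP8 was the highest with 32.6% to 32.7%, and DUSP6 held 5.92% to 6.41%. In all 4 day 6 libraries DUSP1 was the highest, with 38.8% to 41.6%, while DUSP8 and DUSP4 came next at 19.9% to 21.3% and 18.0% to 20.0% and changed places between the control libraries. The cytoplasmic ERK phosphatases together held 29.1% to 31.3% of the sum with late FGF2, against 10.1% to 10.6% in the day 12 controls, and the JNK and p38 phosphatases held 22.5% to 23.5% with late FGF2, against 38.8% to 39.2% in the day 12 controls.

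In the doxycycline set the sum was 98.3 CPM per kilobase on day 0. It was 156 with doxycycline and 40.7 without it on day 5, and 160 with doxycycline and 42.8 without it on day 11. DUSP6 was the highest of the 10 in every library without doxycycline, with 54.6% of the sum on day 0, 37.3% on day 5 and 53.7% on day 11, followed by DUSP16 with 19.2%, 21.7% and 13.9%. With doxycycline, DUSP4 (29%) and DUSP8 (25.3%) led on day 5 and DUSP8 (39.1%) and DUSP4 (20.9%) on day 11. DUSP6 then held 14.4% on day 5 and 8.88% on day 11. The sets were scaled separately, and these sums are descriptions of single libraries.

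**Figure D5:**
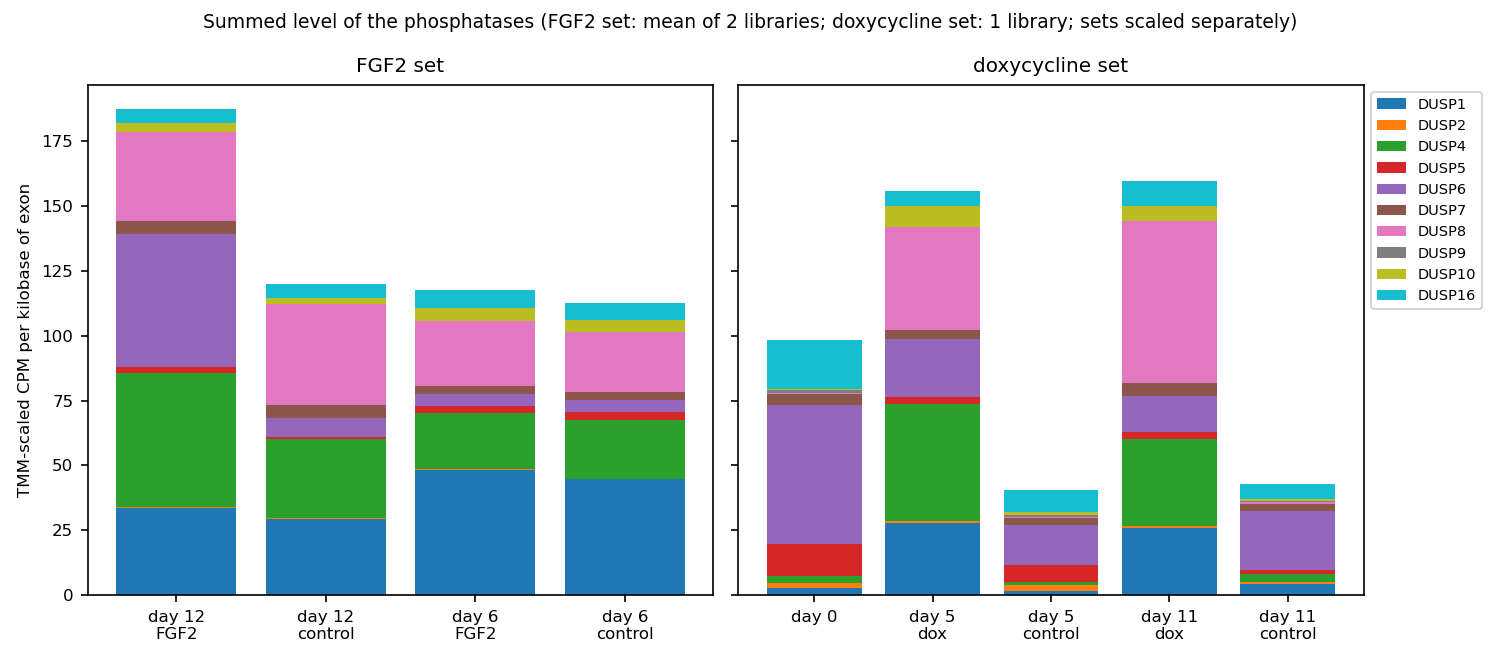
Stacked levels of the 10 phosphatases in TMM-scaled CPM per kilobase of exon (vertical axis, from 0) by group, as the mean of 2 libraries in the FGF2 set (left) and 1 library in the doxycycline set (right), with the sets scaled separately. The family stands at 184 to 192 in the libraries with late FGF2, against 118 to 122 in their controls, and at 156 and 160 with doxycycline, against 40.7 and 42.8 without it.

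Genes known to be induced by ERK were higher with late FGF2 along with DUSP6, DUSP5 and DUSP4. Of a list of 25 such genes, 20 were tested, 17 were higher and 0 lower with late FGF2, beside 1.63% and 0.536% of all genes, with a median log2 fold change of 1.01, against 0.00 over all genes tested. ETV4, an ETS transcription factor, was at 98.1 ± 2.10 CPM with late FGF2 and 1.73 ± 0.82 CPM in the controls (SD, n = 2 each, adjusted p = 4.01e-11 by edgeR). The ERK pathway inhibitors SPRY4 and SPRY2 were at 68.0 ± 0.05 CPM and 46.4 ± 0.26 CPM with late FGF2, against 7.51 ± 1.52 CPM and 13.3 ± 0.01 CPM in the controls. ETV5 was at 85.9 ± 2.43 CPM with late FGF2, against 40.5 ± 0.62 CPM in the controls. With early FGF2, 0 of the 20 were called by edgeR, with 2 at an unadjusted p under 0.05, and the median was 0.01, the same as over all genes. The test of the difference called 11 of the 20 as more positive with late FGF2 and 0 as more negative, beside 0.645% and 0.0844% of all genes. Between the day 12 and day 6 controls 4 of the 20 were higher and 12 lower, beside 31.7% and 32.3% of all genes, and SPRY4, at 7.51 ± 1.52 CPM on day 12 and 85.1 ± 6.06 CPM on day 6, was low at day 12 like DUSP5. Of 19 list members at 10 CPM or more on day 5, 3 were 4-fold higher with doxycycline and 6 lower, and of 15 on day 11, 2 were higher and 4 lower. The shares over all genes were 12.6% higher and 11.5% lower on day 5, and 11.5% higher and 9.85% lower on day 11. On day 5 CCND1, EGR1, SPRY1, LIF and FOSL1 reached 10 CPM only without doxycycline, so they could enter only as lower. SPRED3 reached it only with doxycycline and could enter only as higher. On day 11 CCND1, SPRY1 and ETV4 reached 10 CPM only without doxycycline, and VGF only with it. Their direction in the day 11 count was therefore fixed as well. ETV4 was at 13.2 CPM with doxycycline and 102 CPM without it on day 5, whereas ETV5 was at 154 CPM with it and 28.4 CPM without it.

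Of 29 genes of the ERK cascade, all tested, 2 (6.90%) were higher with late FGF2, beside 1.63% of all genes, and 0 were lower. They are the adaptor SHC1, at 45.3 ± 5.91 CPM with late FGF2 and 25.9 ± 0.03 CPM in the controls (adjusted p = 0.000276 by edgeR), and MKNK1, a kinase activated by ERK and p38, at 29.8 ± 2.83 CPM with late FGF2 and 20.4 ± 2.23 CPM in the controls (adjusted p = 0.0115). Of 29 genes of the JNK and p38 cascades, 1 was lower, JUN, the transcription factor that JNK phosphorylates, at 105 ± 2.62 CPM with late FGF2 and 151 ± 6.61 CPM in the controls (adjusted p = 0.00128), beside 0.536% of all genes lower, and 0 were higher. The median log2 changes of these lists were -0.0039 and -0.02. Among 26 other phosphatases of MAP kinases and atypical DUSP genes, 23 were tested and 0 were called with late FGF2 by edgeR, with 3 at an unadjusted p under 0.05 and a median of -0.02. With early FGF2 these 3 lists had 0 called members by edgeR, with 1, 1 and 2 at an unadjusted p under 0.05. Between the day 12 and day 6 controls, 12 of the 23 other phosphatases were higher and 4 lower, beside 31.7% and 32.3% of all genes, and PTPN5, a neuronal tyrosine phosphatase of ERK and p38, had the smallest p of those higher (log2 change 2.31, adjusted p = 9.62e-12 by edgeR).

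With doxycycline, 7 of 28 genes of the JNK and p38 cascades at 10 CPM or more were at least 4-fold higher and 1 lower on day 5, and 7 of 27 higher and 1 lower on day 11. Over all genes 12.6% were higher and 11.5% lower on day 5, and 11.5% higher and 9.85% lower on day 11. On day 5 JUN, MAPK10 and MAPK8IP2, FRS3 of the ERK cascade, and DUSP26 of the other phosphatases, reached 10 CPM only with doxycycline. On day 11 the same held for JUN, MAPK8IP2 and MAPK11, for FRS3 and KSR2, and for DUSP26, DUSP15 and DUSP18. These genes could enter the counts of that day only as higher. MAPK13 on day 5 and SSH3 on both days reached it only without doxycycline, so they could enter only as lower. MAPK8, which encodes the kinase JNK1, was at 424 CPM with doxycycline and 50.4 CPM without it on day 5. MAPK10, the neuronal JNK3, was at 159 CPM with doxycycline and 2.81 CPM without it on day 5. On day 11 it was at 95.9 CPM without doxycycline and was not among the genes 4-fold higher with it. The JNK scaffold MAPK8IP2 was at 319 CPM with doxycycline and 5.27 CPM without it on day 5. For the ERK cascade 3 of 27 members were higher and 1 lower on day 5, and 3 of 28 higher and 0 lower on day 11. The other phosphatases had 3 of 18 higher and 1 lower on day 5, and 5 of 18 higher and 1 lower on day 11, with PTPN5 at 93.8 CPM with doxycycline and 21.8 CPM without it on day 5. The median log2 ratios on day 5 were 1.16 for the JNK and p38 cascades, 1.06 for the ERK cascade and 1.11 for the other phosphatases, against 0.23 over all genes. On day 11 they were 1.02, 0.61 and 0.74 in the same order, against 0.16 over all genes, so that on both days the medians of all 3 lists lay above that of all genes.

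Patterns over the 9 groups were compared for the 7 phosphatases that spanned at least 2 log2 units in either set, as the root mean square difference of log2(CPM + 1) centred within each set, over 14433 genes. The closest to DUSP8 were CDK5R2, GOLGA7B and CACNG4, at 0.24, 0.25 and 0.29 log2 units. For DUSP4 they were CORO2B, CLVS2 and MARCH4 (0.20, 0.24 and 0.26), for DUSP1 VASH1, MTMR6 and HEY1 (0.17, 0.17 and 0.18), and for DUSP10 PPP1R15A, FAM89B and PLXNA3 (0.23, 0.29 and 0.30). The nearest to DUSP6 lay farther off, with DCBLD1, MAML2 and GYPC at 0.42, 0.62 and 0.65. DUSP5 had HTATIP2, MFSD2A and SERPINB6 at 0.40 to 0.41, and DUSP9 had RPL17, CCDC86 and TTLL12 at 0.09 to 0.10. DUSP9 lies near the floor, at 0.169 CPM with doxycycline and 1.81 CPM without it on day 5. Adding 1 CPM shrinks such differences, so the small distances of DUSP9 do not mark a closer likeness than those of the other members.

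In the authors' deposited tables, 8 of the 10 phosphatases are listed. In the authors' deposited limma table for late FGF2, 5 had an adjusted p under 0.05: DUSP6 (log2 fold change 2.79), DUSP5 (1.86), DUSP10 (0.86) and DUSP4 (0.75) as higher and DUSP8 (-0.20, adjusted p = 0.00559) as lower. The authors' deposited DESeq2 table for late FGF2 has 4 under 0.05, with DUSP6 at 2.51, DUSP4 at 0.72, DUSP10 at 0.51 and DUSP8 at -0.19 (adjusted p = 0.011), and lists DUSP5 at 0.73 with no adjusted p. In the authors' deposited tables for early FGF2, 0 of the 8 had an adjusted p under 0.05. DUSP8 is called in both of these late FGF2 tables and not in the fit of all 4 groups, and DUSP5 is called in that fit and in the limma table but has no adjusted p in the DESeq2 table.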

How the data were processed

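For both sets the authors deposited raw counts of reads per gene. Per the submitters' processing notes, the tools were Subread and featureCounts 1.5.0 and the genome was GRCh38. Whether counting used strand is not given in the sources used here. Normalized signal values of the doxycycline set were also deposited, as were DESeq2 and limma tables of early and late FGF2 with a log2 fold change and p-value per gene. The 16 per-sample columns inside those tables were not used.

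The 10 members and all gene lists were chosen with earlier results of these data known. All 8 FGF2 libraries entered a single edgeR fit (version 4.0.16, R 4.3.3) of the counts (filterByExpr by group, TMM, 1 mean per group, two-sided quasi-likelihood tests, Benjamini-Hochberg adjustment over 20142 genes). SE is the log2 fold change divided by the square root of its F statistic. The 5 doxycycline libraries have no replicates. Their CPM ratios carry 95% exact binomial intervals (SciPy), and a gene counted as different at 4-fold or more where either library had 10 CPM or more, after adding 1 CPM. Intervals cover counting error only. Exon lengths and overlaps come from GENCODE 29. Named genes were all members, up to 4 called genes per list and direction with the smallest p (by highest CPM in the doxycycline set), and the 3 genes of closest pattern, and not all that the rule gives are printed. The fit was tested on simulated data. Alternatives were RLE scaling, library totals, no filter, DESeq2 1.42.0, limma voom 3.58.1, each library left out, a replicate block and fits of only the groups compared, and for the doxycycline set library totals, the authors' normalized values, 0.1 CPM added and a minimum of 1 CPM.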

Additional observations from a re-analysis of the deposited data

Results flagged for a closer look

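The effect of late FGF2 differed from that of early FGF2 by the test of the difference for 3 phosphatases, by 2.96 log2 units for DUSP6, 1.94 for DUSP5 and 0.81 for DUSP4. In the doxycycline set, 3 phosphatases lay on opposite sides of a ratio of 1 on the days. DUSP5 had a ratio of doxycycline over control of 0.411 on day 5 and 1.90 on day 11. DUSP6 had 1.48 on day 5 and 0.616 on day 11, and DUSP16 had 0.646 on day 5 and 1.58 on day 11. Each of these ratios rests on 1 library a group, and the difference between days was not tested.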

How the results depend on the processing

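DUSP4, DUSP5 and DUSP6 kept their direction and their call with late FGF2 and in the difference under every alternative run, with log2 changes of 0.72 to 0.79, 1.77 to 2.01 and 2.70 to 2.89 with late FGF2. Counts over all genes moved more. In the fit of only the day 12 groups, 812 of 18870 genes were called higher with late FGF2 and 526 lower. The phosphatase counts of that fit, given next, stand against these larger shares. With late FGF2, called by edgeR at 437 genes, no filter gave 656, a fit of only the day 12 groups 1338 (5 phosphatases higher and 1 lower), and leaving out a library 184 to 1188, with fewer calls without each of the 4 day 12 libraries (184 to 219) and more without day 6 FGF2 library 1 (1171) or 2 (1188). In the difference, called at 147 genes, no filter gave 268 and leaving out a library 78 to 1345, with 3 to 5 phosphatases called. The count was 1345 without day 6 FGF2 library 1 and 353 without library 2, against 81 and 86 without day 6 control library 1 and 2, 97 and 78 without day 12 control library 1 and 2, and 91 without day 12 FGF2 library 2. With early FGF2, leaving out a library gave 0 to 2523 genes, the highest without day 6 FGF2 library 1. The fit of all 4 groups did not pair libraries by number. Same-numbered libraries deviated with correlations of 0.004 to 0.098 between groups, which are weak and cannot show whether the libraries were paired. With a replicate block 598 genes were called with late FGF2, 206 in the difference, 0 with early FGF2 and 13200 between days, and the calls of phosphatases numbered 4, 3, 0 and 7 as without it. In the doxycycline set, the authors' normalized values put 1 phosphatase, DUSP6, past 4-fold on day 5 against day 0 without doxycycline, where the counts put 0. The causes of these moves were not tested. At 3 to 11 counts per library of the FGF2 set, DUSP9 cannot be compared.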

Other observations

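The normalized values deposited for the doxycycline set equal the raw counts times 1 of 6 factors between 0.839 and 1.19. In each of the 5 libraries all 6 factors occur, and every value with a count above 0 matches a factor to 4 decimals. A ratio of a gene between 2 libraries in that table can therefore differ from the ratio of its counts by up to 1.42-fold.

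DUSP6 was at 22.5 CPM in the day 6 controls (mean of 2) of the FGF2 set and at 104 CPM with 5 days of doxycycline in the doxycycline set, while DUSP16 was at 36.7 and 32.7 CPM, DUSP7 at 17.0 and 20.3 CPM and DUSP5 at 8.07 and 7.03 CPM. The sets were sequenced and scaled separately, and their titles differ (hES-N1, and hES-N2G1 or hES-N2G2) while the source field is hES-N1 for both, so these values are set side by side without a comparison.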
